A study of Mus musculus with 12 samples.

Results

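Transcripts of 10 nectin-binding, SLAM-family and costimulatory receptors were followed across the data: Cd96, Cd226, Crtam, Cd244, Cd48, Cd84, Cd160, Cd27, Cd2 and Cd7. They were chosen by name, with earlier results of these data known. All 10 of 10 were found among the 5545 genes with complete rows that were analysed, the last of which in alphabetical order is Cyp26b1. All 10 also passed the filter on low counts, which left 2606 genes for testing. Other receptors and ligands of these families whose symbols come later in the alphabet, such as the nectins and Tigit, were not analysed here.

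The RNA came from the livers of C57BL/6 mice (female C57BL/6J in the study's methods), 3 lean and 3 obese. Lean mice were weaned onto RM1 chow, and obese mice were weaned onto an obesogenic pellet whose name gives 45% fat, supplemented with condensed milk, both for 12 weeks. From each of the 6 mice, conventional NK cells (lineage-negative NK1.1+ CD49a- CD49b+) and ILC1, the tissue-resident type 1 innate lymphoid cells (lineage-negative NK1.1+ CD49a+ CD49b-), were sorted, and 2 ng of total RNA from each sort was sequenced. The 12 libraries thus form 4 groups of 3, called lean NK, lean ILC1, obese NK and obese ILC1 below, and the 3 mice of each diet are numbered 25, 26 and 27. A number shared by an NK and an ILC1 library of one diet means 1 mouse, and a number shared across diets means separate animals. The lineage antibodies named in the study's methods include CD3 and CD8α, surface proteins of T cells.

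CD226 (DNAM-1) and CD96 are paired receptors that bind the same nectin-like ligand on target cells, and CD226 is known as an activating receptor of NK cells. CRTAM binds another nectin-like molecule, CADM1. SLAM-family receptors sit on most haematopoietic cells, and several of them signal through SAP-family adaptors. CD48 is the ligand of CD244 (2B4) and, in mice, of CD2, while CD84 binds itself. CD160 is a GPI-anchored receptor for HVEM and MHC class I, CD27 is the TNF-receptor family member that binds CD70, and CD7 is an immunoglobulin-family surface protein of T cells and NK cells.

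The members lie on several chromosomes of GRCm38 (GENCODE M21), and those of the SLAM family lie together. Cd244, which this annotation calls Cd244a, covers chr1:171559193-171609746 on the plus strand, Cd48 covers chr1:171682009-171705258 and Cd84 covers chr1:171839697-171890718, both also on the plus strand. From the start of Cd244 to the end of Cd84 this locus spans 331.5 kb. Cd160 (chr3:96798763-96829351) and Cd2 (chr3:101275899-101287939) lie on the minus strand of chromosome 3, separated by 4447 kb. Cd96 (chr16:46035657-46120251), Crtam (chr9:40969691-41004628), Cd27 (chr6:125232622-125237010) and Cd7 (chr11:121036747-121039418) also lie on the minus strand. Exons of Cd7 share 122 bases, 10.8% of its merged exons, with the antisense gene Gm11775, and exons of Cd160 share 68 bases, 2.57%, with Pdzk1 on the other strand. The strand setting of the counting is not given in the sources used here, so reads from these stretches cannot be assigned to one gene or the other.

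RefSeq promoter windows of build GRCm38.p6 were found for 6 of the 10 members: Cd96, Cd244, Cd48, Cd84, Cd160 and Cd27. Those of Cd160, Cd96 and Cd27 are shown because transcripts of these genes were higher in ILC1 of most mice below, and that of Cd244 as an example of a gene whose difference did not pass the test. Each is the 250 bases before an annotated start, on the gene's strand and 5′ to 3′. Capitals mark matches, on either strand, to GGTGTGA (the core bound by T-box factors, the family of T-bet and Eomes), TGTGGTT (the core of Runt-domain factors) and AGGAAG (the core of many ETS factors).
Cd160: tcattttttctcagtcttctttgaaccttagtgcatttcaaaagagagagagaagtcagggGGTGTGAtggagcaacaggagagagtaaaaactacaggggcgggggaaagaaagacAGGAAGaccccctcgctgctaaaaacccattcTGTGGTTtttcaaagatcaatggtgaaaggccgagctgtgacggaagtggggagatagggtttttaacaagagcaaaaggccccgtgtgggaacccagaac
Cd96: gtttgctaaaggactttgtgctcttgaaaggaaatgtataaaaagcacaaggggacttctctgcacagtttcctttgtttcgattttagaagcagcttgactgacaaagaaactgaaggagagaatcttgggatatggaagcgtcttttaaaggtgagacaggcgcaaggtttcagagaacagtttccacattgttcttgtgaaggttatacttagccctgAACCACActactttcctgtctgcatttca
Cd27: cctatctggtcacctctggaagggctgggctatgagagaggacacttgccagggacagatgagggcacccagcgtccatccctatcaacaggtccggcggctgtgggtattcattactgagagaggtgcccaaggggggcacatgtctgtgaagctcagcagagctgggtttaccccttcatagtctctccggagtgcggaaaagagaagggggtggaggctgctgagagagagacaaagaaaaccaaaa
Cd244: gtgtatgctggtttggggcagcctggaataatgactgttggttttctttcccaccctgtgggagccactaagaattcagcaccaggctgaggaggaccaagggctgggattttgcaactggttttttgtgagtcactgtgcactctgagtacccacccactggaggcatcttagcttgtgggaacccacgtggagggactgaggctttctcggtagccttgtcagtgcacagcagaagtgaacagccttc
The printed Cd160 window is chr3:96814522-96814771 and lies before the inner of 2 annotated starts, inside the gene's span, and gene counts do not show which start was used. That of Cd96 is chr16:46120249-46120498, that of Cd27 is chr6:125237028-125237277 and that of Cd244 is chr1:171558943-171559192. The bases that follow the RefSeq starts of Cd27 and Cd48 were not found in GENCODE transcripts of these genes, unlike those of the other windows. The printed Cd160 window holds 1 match to each of the 3 motifs, the Cd96 window 1 match to the Runt motif, and the Cd27 and Cd244 windows none. Of the windows not printed, the one before the outer Cd160 start (chr3:96829352-96829601) holds 1 Runt and 1 ETS match and none to the T-box motif, that of Cd48 holds 1 T-box match and that of Cd84 none. Over 32851 promoter windows of this length, 3.33% hold the T-box letters, 4.40% the Runt letters and 29.5% the ETS letters on either strand. These matches describe letters and not bound sites.

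The counts of the genes analysed summed to between 1666637 and 2826766 per library, which covers only part of each library's reads. Marker genes, 2 for each sorted cell type, differed between NK and ILC1 libraries. They were chosen with earlier results of these data known, so they describe the libraries and do not check the sort. The summed normalised counts of Cma1 and Cx3cr1, genes of NK cells, were 5983 to 11852 in the 6 NK libraries and 102 to 3385 in the 6 ILC1 libraries, whereas those of Cxcr6 and Cd200r1, genes of ILC1, were 69 to 728 and 7132 to 27521. Normalised counts are the authors' counts divided by 1 factor per library. Obese ILC1 replicate 26 stood apart from the other libraries: 8 hepatocyte genes such as Alb summed to 259156 in it, 8.06% of its counts, and to at most 1090 in the other 11. In the same library 8 Kupffer cell and macrophage genes summed to 46738, against at most 2077 in the rest. Its factor was the lowest of the 12, at 0.570. Lean NK replicate 27 had the fewest genes with a count, 1948, against 2014 to 3292 in the others. Results on ILC1 from obese mice are therefore given with and without replicate 26. In bulk RNA, fewer cells of a type and less RNA per cell cannot be told apart.

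The first question was how the receptors differ between ILC1 and NK cells. Cd160, Cd7 and Cd226 transcripts were more abundant in ILC1 and Cd2 transcripts were less abundant, and these differences passed the test over both diets. Cd96 and Cd27 were also higher in ILC1 of every mouse but the one whose ILC1 library stood apart. Cd244, Cd48 and Cd84, the SLAM-family genes, gave small mean differences that did not pass. Crtam varied widely between libraries of one group.

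**Figure D1:**
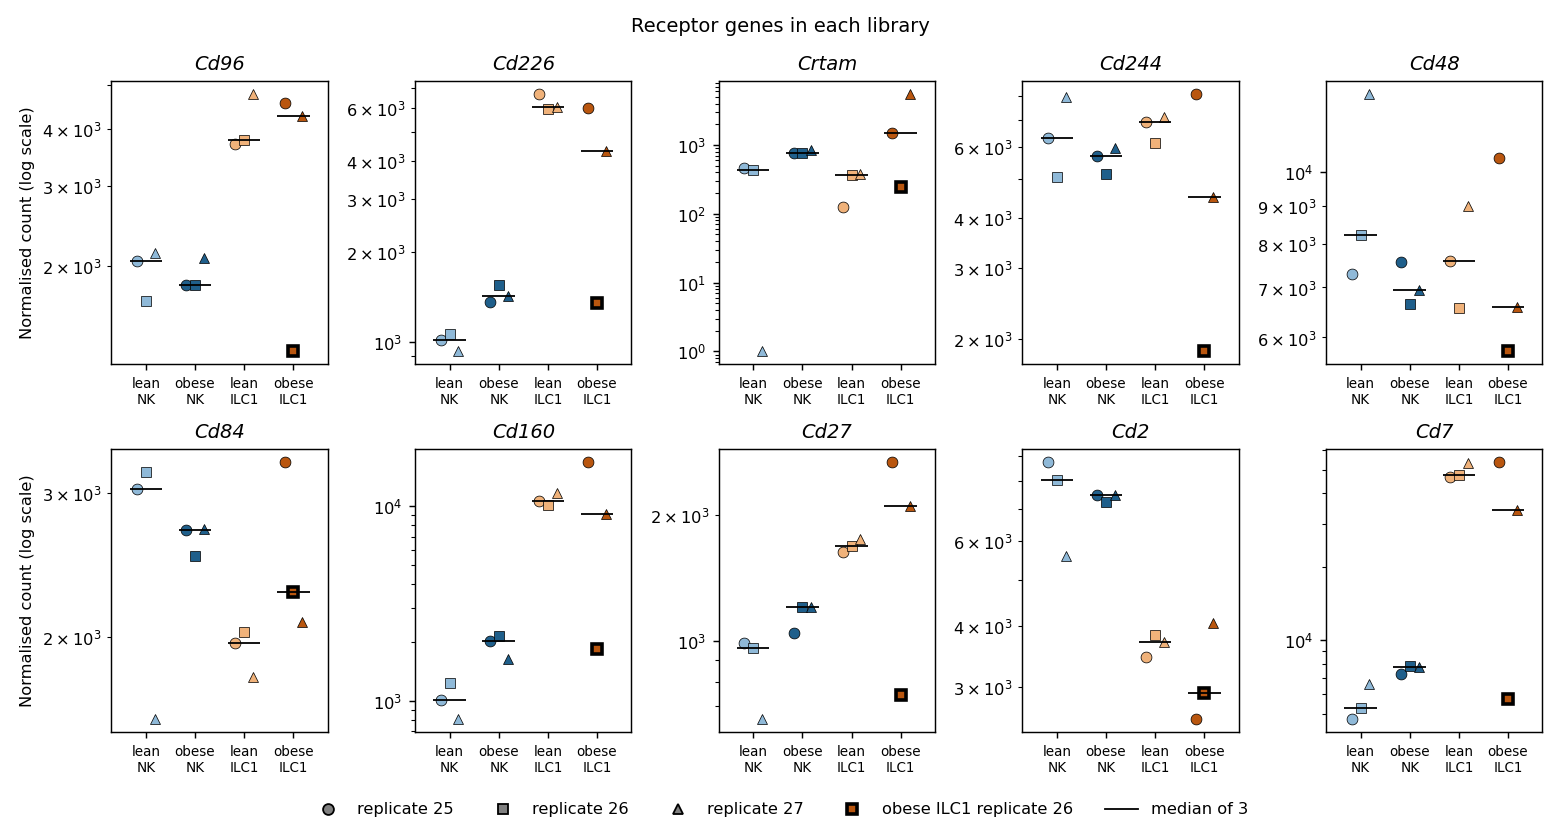
Normalised counts (log scale, one vertical scale per gene) of the 10 receptor genes in each of the 12 libraries, with the median of each group of 3 as a line and the replicate number as the marker shape. For Cd7, Cd160 and Cd226 the lean ILC1 libraries sit above all NK libraries, whereas obese ILC1 replicate 26 (heavy outline) sits among the NK libraries.

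Cd226 normalised counts were 1018, 1065 and 933 in lean NK and 1360, 1550 and 1427 in obese NK. In lean ILC1 they were 6702, 5977 and 6041, and in obese ILC1 6019, 1353 and 4332, in the order of replicates 25, 26 and 27. Every ILC1 library but obese replicate 26 was above every NK library. Averaged over both diets, Cd226 was 4.06-fold higher in ILC1 (log2 fold change 2.02, SE 0.29, adjusted p = 0.00227, quasi-likelihood test of edgeR, adjusted by Benjamini-Hochberg).

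Cd96, whose product shares its ligand with CD226, had 2044, 1674 and 2130 normalised counts in lean NK and 1808, 1811 and 2074 in obese NK. In lean ILC1 it had 3707, 3780 and 4784, and in obese ILC1 4572, 1293 and 4279. The lean groups did not overlap, and in obese mice replicate 26 was the only ILC1 library below the NK cells. The mean difference of 0.94 on the log2 scale (SE 0.27) did not pass the test (edgeR adjusted p = 0.0677), but without obese ILC1 replicate 26 Cd96 was 2.18-fold higher in ILC1 (adjusted p = 9.04e-05).

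Crtam, the third nectin-family receptor, was the most variable member. Its normalised counts were 462, 438 and 1 in lean NK, the last from a single read, and 759, 753 and 848 in obese NK. In lean ILC1 they were 126, 365 and 384, and in obese ILC1 1510, 246 and 5532. ILC1 and NK cells overlapped in both diets, and the log2 fold change over both diets was 0.78 with an SE of 0.92 (edgeR adjusted p = 0.783).

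Cd160 had the largest fold of the members. Its normalised counts were 1018, 1233 and 807 in lean NK and 2029, 2166 and 1647 in obese NK, and 10647, 10190 and 11643 in lean ILC1. In obese ILC1 they were 16929, 1853 and 9115, the middle value again from replicate 26 and within the obese NK range. Over both diets Cd160 was 7.07-fold higher in ILC1 (log2 fold change 2.82, SE 0.42, edgeR adjusted p = 0.00244).

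Cd7 was the most abundant member in ILC1. It had 4747, 5271 and 6632 normalised counts in lean NK, 7295, 7829 and 7752 in obese NK, 46756, 47565 and 53138 in lean ILC1, and 53833, 5751 and 34212 in obese ILC1. Here too replicate 26 was the one ILC1 library inside the NK range. Cd7 was 5.99-fold higher in ILC1 over both diets (log2 fold change 2.58, SE 0.41, edgeR adjusted p = 0.00361). With the mouse as a block, the adjusted p of Cd7 was 0.0513, and without replicate 26 it was 4.73e-07 in the unblocked fit.

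Cd27, the receptor for CD70, was low in both cell types relative to Cd7. It had 990, 962 and 651 normalised counts in lean NK, 1048, 1207 and 1206 in obese NK, 1633, 1694 and 1761 in lean ILC1, and 2687, 742 and 2112 in obese ILC1. Lean ILC1 were above lean NK without overlap. The difference over both diets was 0.81 on the log2 scale (SE 0.27, edgeR adjusted p = 0.121). Without replicate 26 it was 0.99 (SE 0.14, adjusted p = 0.00177), a fold of 1.98, just under the 2-fold limit. Cd70, the gene of its ligand, had at most 27 reads in any library and was not tested.

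Cd2, an adhesion receptor of T cells and NK cells, was the one member called lower in ILC1. Its normalised counts were 8755, 8022 and 5581 in lean NK and 7474, 7223 and 7465 in obese NK. In lean ILC1 they were 3463, 3842 and 3715, and in obese ILC1 2572, 2911 and 4075, so that all 6 ILC1 libraries were below all 6 NK libraries, replicate 26 included. Cd2 fell by 1.14 on the log2 scale (SE 0.15, edgeR adjusted p = 0.00132), which is 2.20-fold lower in ILC1.

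Cd244, Cd48 and Cd84 gave small differences that did not pass the test. For Cd244 the normalised counts were 6300, 5049 and 7979 in lean NK, 5677, 5146 and 5963 in obese NK, 6903, 6113 and 7097 in lean ILC1, and 8115, 1860 and 4508 in obese ILC1. Cd48, the gene of the CD244 ligand, had 7288, 8228 and 12715 in lean NK, 7561, 6645 and 6952 in obese NK, 7599, 6575 and 9002 in lean ILC1, and 10433, 5749 and 6596 in obese ILC1. Both genes overlapped between cell types in each diet. Cd84 ranged from 1585 to 3185 in lean NK, 2510 to 2712 in obese NK, 1786 to 2027 in lean ILC1 and 2086 to 3277 in obese ILC1. The log2 fold changes over both diets were -0.09 for Cd244 (SE 0.29), -0.10 for Cd48 (SE 0.18) and -0.27 for Cd84 (SE 0.19), with edgeR adjusted p-values of 0.938, 0.873 and 0.559.

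In all, 3 of the 10 members were called higher and 1 lower in ILC1 over both diets, where called means an adjusted p under 0.05 and a fold over 2. Of all 2606 genes tested, 3.15% were called higher and 1.19% lower. Without obese ILC1 replicate 26, 4 members (Cd96, Cd226, Cd160 and Cd7) were called higher and Cd2 lower, against 3.04% and 1.59% of the 2698 genes then tested. With that library left out, 5 members had all ILC1 libraries above all NK libraries (4.8% of genes) and 1, Cd2, had all below (4.49%). The median log2 fold change of the 10 members was 0.80, against 0.04 for all genes tested. The members were chosen with earlier results of these data known, so these contrasts with all genes are descriptions.

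Because each mouse gave both cell types, a fit with a term for each mouse (a block) was made as well. Over both diets this called 3 members, Cd226 (adjusted p = 0.0363), Cd160 (0.044) and Cd2 (0.0163), against 1.77% of genes called in either direction. With the block and without obese ILC1 replicate 26, 6 members were called, Cd96, Cd226, Cd160, Cd27 and Cd7 higher and Cd2 lower, against 2.22% of genes. Within mice, Cd160 was 8.30-fold higher in ILC1 as the median of the 6 ratios, Cd7 7.70-fold and Cd226 5.02-fold. All 3 of these, as well as Cd96 and Cd27, were higher in ILC1 in 5 of 6 mice, the exception being the mouse of replicate 26, and Cd2 was lower in 6 of 6.

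**Figure D2:**
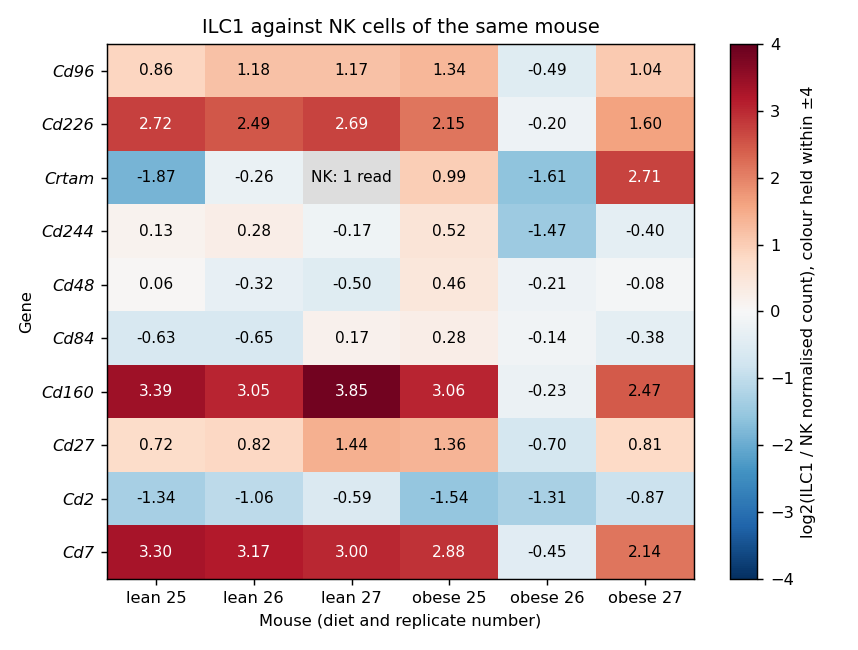
The log2 ratio of normalised counts in ILC1 to those in NK cells of the same mouse, for the 10 genes (rows) and 6 mice (columns), with red for higher in ILC1 and blue for lower. Obese mouse 26 lacks the red of Cd226, Cd160 and Cd7 seen in the other 5 mice, Cd2 is blue in all 6, and 1 Crtam cell is grey because the NK library held 1 read.

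In lean mice alone, the same 3 members were called higher in ILC1, Cd160 10.7-fold (edgeR adjusted p = 0.012), Cd7 8.95-fold (adjusted p = 0.0164) and Cd226 6.26-fold (adjusted p = 0.00754). Cd2 was called lower, by 1.01 on the log2 scale (adjusted p = 0.0331). The background was 1.5% of genes called higher and 0.806% called lower. In these libraries 5 members, the 3 above with Cd96 and Cd27, lay higher in every ILC1 library than in every NK library (13.6% of genes did), and Cd2 lay lower (11.4% of genes did). Without obese ILC1 replicate 26, which enters the shared estimate of spread, Cd96 was also called, 2.09-fold higher (adjusted p = 0.00158), against 1.93% of genes called higher and 1.19% lower.

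The lean calls depended on the fit. With the mouse as a block no member was called in lean mice (adjusted p = 0.0655 for Cd226, 0.081 for Cd160, 0.0884 for Cd7 and 0.139 for Cd2), against 0.806% of genes in either direction. When replicate 26 was also left out, Cd96, Cd226, Cd160 and Cd7 were called and Cd2 was not (adjusted p = 0.0741), against 1.67% of genes. Leaving out any 1 of the 3 lean NK libraries left Cd226 as the one member called higher.

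In obese mice, Cd2 was the one member called, 2.40-fold lower in ILC1 (edgeR adjusted p = 0.0205), against 0.537% of genes called higher and 0.384% lower. The log2 fold changes of Cd160 (2.22, adjusted p = 0.0998), Cd7 (2.00, adjusted p = 0.131) and Cd226 (1.40, adjusted p = 0.141) did not pass. Without replicate 26, 5 members were called higher, Cd160 6.50-fold (adjusted p = 0.00023), Cd7 5.62-fold (7.64e-05), Cd226 3.48-fold (0.000183), Cd96 2.27-fold (0.00303) and Cd27 2.02-fold (0.0372), and Cd2 was called lower (0.0257). The background was then 1.22% higher and 0.667% lower. With the mouse as a block no member was called (0% of genes), and with the block but without replicate 26 Cd226, Cd160 and Cd7 were called (0.371% of genes).

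**Figure D3:**
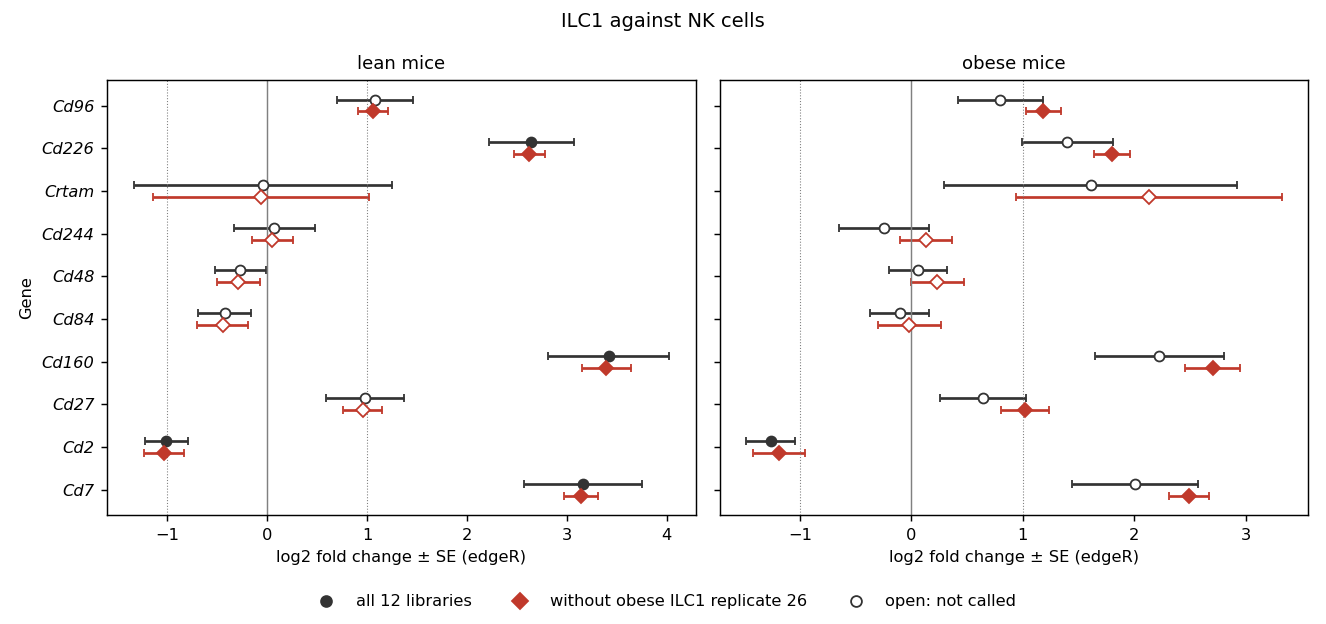
Log2 fold change of ILC1 against NK cells (edgeR, bars are 1 SE) for each gene in lean and in obese mice, from all 12 libraries (circles) and without obese ILC1 replicate 26 (diamonds), with filled symbols for calls and dotted lines at 2-fold. In obese mice Cd160 moves from 2.22 to 2.70, Cd7 from 2.00 to 2.49 and Cd226 from 1.40 to 1.80 when that library is left out.

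Markers of other cell types also differed between groups. Of the T cell list, 9 of 9 genes were in the table, and their summed normalised counts were 993 to 2159 in NK cells, 14903 to 17847 in lean ILC1 and 4821 to 15772 in obese ILC1. In lean ILC1 most of the sum was Cd3g, a CD3 chain gene, at 12468 to 13673. Cd3g was at 120 to 229 in lean NK and at 2037 to 12599 in obese ILC1. Cd3e was at 271 to 1013 in lean ILC1 and 11 to 35 in lean NK, while Cd8a and Cd8b1 were at 0 in all lean ILC1 libraries. In obese ILC1 Cd8a and Cd8b1 reached 353 and 786, and 0 and 16 without replicate 26. Cd28, on the same list, overlapped between lean ILC1 (897 to 1085) and lean NK (702 to 1506). Within obese ILC1 the T cell sum and Cd7 were both highest in replicate 25, at 15772 and 53833. The sum was 10331 in replicate 26, where Cd7 was at 5751, and 4821 in replicate 27, where Cd7 was at 34212. The part of T cells in the higher Cd7, Cd226 and Cd160 of ILC1 was not tested. In obese ILC1 replicate 26 the low values of Cd7, Cd160 and Cd226 occurred beside the hepatocyte and macrophage counts given above. In the same library the NK marker sum was 3385, against 102 to 815 in the other 5 ILC1 libraries, and the ILC1 marker sum was 7132, against 15853 to 27521. Most of that NK marker sum was Cx3cr1, at up to 3111 in obese ILC1 and up to 317 without replicate 26. The other NK marker, Cma1, ran from 150 to 810 in obese ILC1 with or without that library. The part of hepatocytes, macrophages or NK cells in the low values of replicate 26 was not tested either. The 2 other obese ILC1 libraries had macrophage sums of 1950 and 2077, above the 178 to 447 of lean ILC1.

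Levels were compared between members as normalised counts per kilobase of merged exon. In lean NK cells Cd48 was highest (7914 ± 2439, SD, n = 3), followed by Cd7 (4899 ± 859) and Cd2 (4281 ± 955), which overlapped. Cd244 (1321 ± 302) and Cd96 (893 ± 111) came next without overlap, then Cd84, Cd160 and Cd27 between 373 and 415, whose libraries overlapped, then Cd226 (206 ± 14) and Crtam (59 ± 51). In lean ILC1 the order was led by Cd7 (43383 ± 3067), followed by Cd48 (6497 ± 1025) and Cd160 (4098 ± 281), none of which overlapped. Cd2 (2110 ± 111) overlapped with Cd96 (1873 ± 276), and Cd244 (1375 ± 107) with Cd226 (1276 ± 82), while Cd27 (729 ± 28), Cd84 (307 ± 20) and Crtam (57 ± 28) closed the order. Cd226 stood ninth of the members in lean NK cells and beside Cd244 in lean ILC1.

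Since CD226 and CD96 compete for one ligand, the ratio of their transcripts was taken within each library, as a log2 ratio of counts that no scaling between libraries can move. For Cd226 to Cd96 it was -1.01, -0.65 and -1.19 in lean NK and -0.41, -0.22 and -0.54 in obese NK. It was 0.85, 0.66 and 0.34 in lean ILC1 and 0.40, 0.07 and 0.02 in obese ILC1. The ratio was below 0 in all 6 NK libraries and above 0 in all 6 ILC1 libraries, replicate 26 included. Counts were not divided by exon length here, and merged exons were 4891 bases for Cd226 and 2184 for Cd96. A ratio of 0 therefore does not mark equal levels. Per kilobase, Cd96 was above Cd226 in lean ILC1 (1873 against 1276). Within mice the ratio was higher in ILC1 in 6 of 6, by 1.06 on average (SD 0.61). The exact two-sided sign-flip permutation p was 0.03125, the smallest that 64 sign patterns can give, with an adjusted p of 0.188 over 6 tests.

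Between diets, the Cd226 to Cd96 ratio was higher in each obese NK library than in each lean one, by 0.56, and lower in obese than lean ILC1 by 0.46 on average with overlap. The exact permutation p was 0.1 in NK cells, the smallest that 3 against 3 can give, and 0.2 in ILC1 (adjusted p = 0.2 and 0.3). For Cd244 to its ligand gene Cd48 the ratio was -0.70 to -0.21 in lean NK, -0.41 to -0.22 in obese NK, -0.34 to -0.11 in lean ILC1 and -1.63 to -0.36 in obese ILC1. The lowest value was that of obese ILC1 replicate 26. The mean within-mouse difference was -0.09 (exact sign-flip permutation p = 0.875), and obese ILC1 were lower than lean ILC1 by 0.65 (exact permutation p = 0.1, adjusted p = 0.2) with all libraries and by 0.26 without replicate 26.

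**Figure D4:**
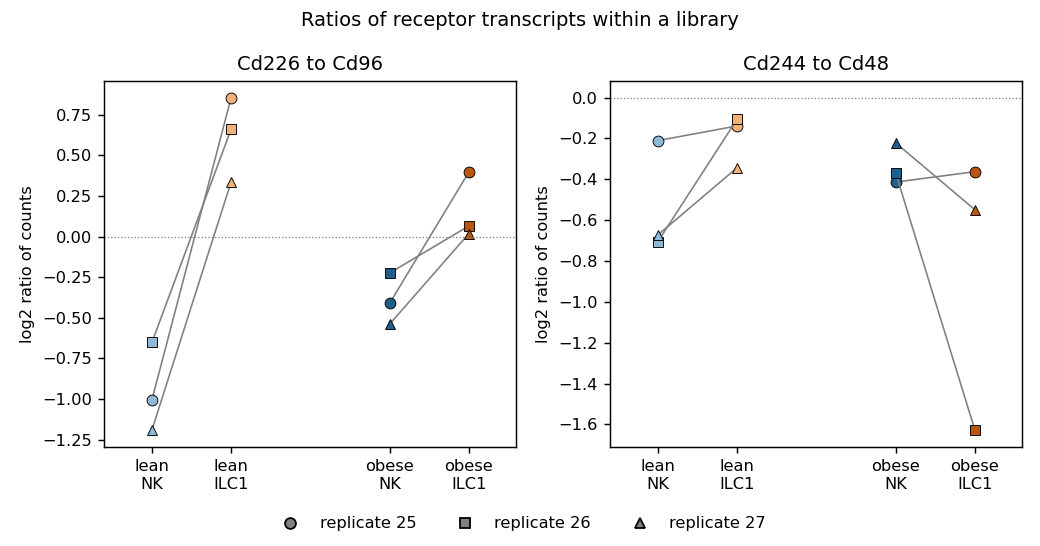
Log2 ratio of counts within a library for Cd226 to Cd96 (left) and Cd244 to Cd48 (right), with lines joining NK cells and ILC1 of one mouse. The left ratio is higher in ILC1 than in NK cells in all 6 mice, and on the right obese ILC1 replicate 26 lies at -1.63. Counts are not divided by exon length, so 0 does not mark equal levels.

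The second question was whether obesity changed these receptors within a cell type. In NK cells no member was called (0% of genes were), and no member had an unadjusted p under 0.05 in the edgeR fit of all 12 libraries (1.19% of genes did). Without obese ILC1 replicate 26, which enters the shared estimate of spread, the unadjusted p was 0.001376 for Cd160, 0.002809 for Cd226, 0.009991 for Cd7 and 0.04558 for Cd27 (2.71% of genes were under 0.05), with edgeR adjusted p-values of 0.479, 0.632, 1 and 1. In an edgeR fit of the 6 NK libraries alone it was 0.002318 for Cd160, 0.003658 for Cd226 and 0.007428 for Cd7 (3.74% of genes), with adjusted p-values of 0.972, 0.972 and 0.977. DESeq2 called no member either, against 0.337% of genes. Nevertheless, 5 of the 10 members, Cd226, Crtam, Cd160, Cd27 and Cd7, were higher in every obese NK library than in every lean one, a pattern found for 9.9% of genes, and none was lower in every obese library (6.33% of genes). The largest of these differences was that of Crtam, 2.66-fold (log2 fold change 1.41, SE 1.31), with 1 read in lean NK replicate 27. Next came Cd160, 1.95-fold (log2 fold change 0.97, SE 0.56, adjusted p = 1). Cd226 followed at 1.47-fold (0.56, SE 0.40), Cd7 at 1.41-fold (0.50, SE 0.55) and Cd27 at 1.36-fold (0.44, SE 0.39). The ILC1 marker sum was also higher in every obese NK library (240 to 728) than in every lean one (69 to 135). Every obese NK library had more counts as well, 2306550 to 2826766 against 1845970 to 2136211. The part of either in the higher values of these members was not tested.

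Crtam in NK cells had 438 and 462 normalised counts in 2 lean libraries and 753 to 848 in the obese ones, while lean NK replicate 27, the library with the fewest genes detected, held 1 read. Cd2 and Cd96 had close mean levels in lean and obese NK cells, with log2 fold changes of 0.02 (SE 0.21) and -0.003 (SE 0.38). The log2 fold changes of Cd48 (-0.38, SE 0.26), Cd244 (-0.17, SE 0.40) and Cd84 (0.05, SE 0.27) were not called, and lean and obese NK libraries overlapped for each gene.

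In ILC1 no member was called between obese and lean mice (0% of genes were), and 1, Crtam, had an unadjusted p under 0.05 in the edgeR fit of all 12 libraries (10.6% of genes did). DESeq2 called none of the members and 2.67% of genes. The largest difference was that of Crtam, 3.06 on the log2 scale (SE 1.39, unadjusted p = 0.04999, edgeR adjusted p = 0.469), with obese values of 1510, 246 and 5532 against lean values of 126, 365 and 384. Cd84 was higher in all 3 obese ILC1 libraries than in the lean ones (2086 to 3277 against 1786 to 2027), as were 7.29% of genes, and 7.94% were lower in all. Its log2 fold change was 0.37 (SE 0.27, adjusted p = 0.702).

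Without replicate 26, Crtam, Cd84 and Cd27 were higher in both remaining obese ILC1 libraries than in all lean ones, against 10.8% of genes higher and 14% lower, and none was called (adjusted p = 0.397, 0.604 and 0.478). Crtam was called, with a log2 fold change of 3.60 (adjusted p = 0.0434), in 1 of the fits run, that without lean NK replicate 27 as well. For Cd226 and Cd7 the obese against lean log2 fold changes in ILC1 were -0.69 and -0.66 with all libraries and -0.27 and -0.16 without replicate 26.

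**Figure D5:**
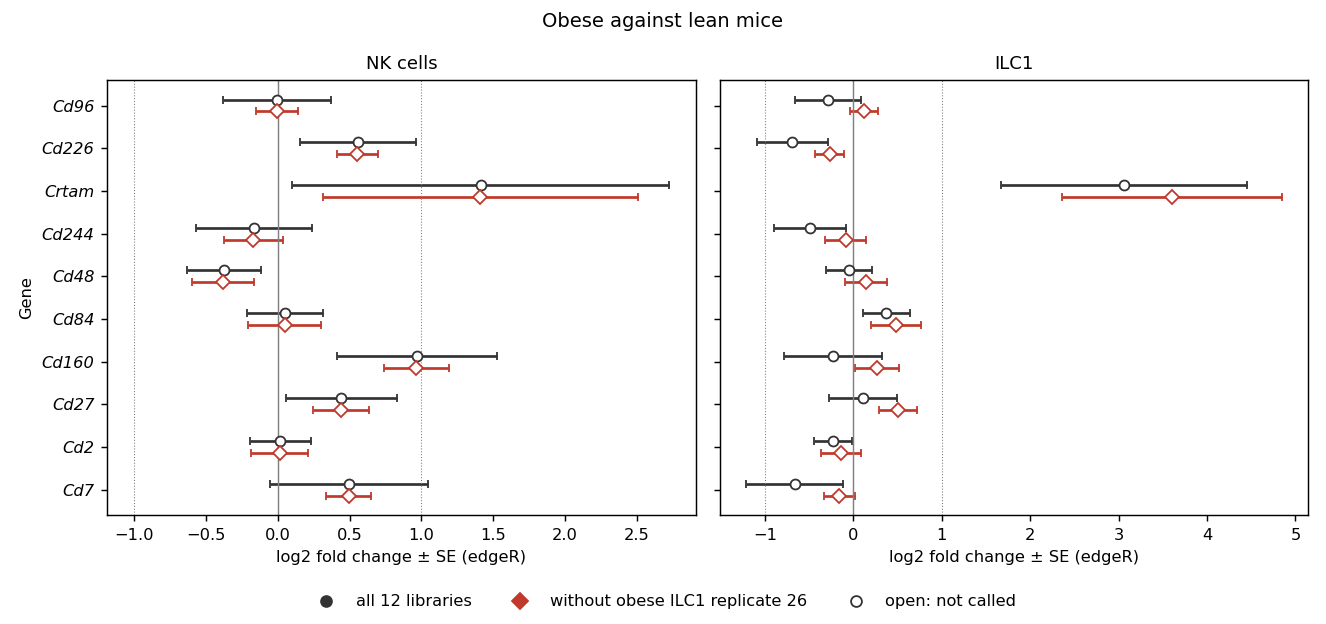
Log2 fold change of obese against lean mice (edgeR, bars are 1 SE) in NK cells and in ILC1, with all 12 libraries (circles) and without obese ILC1 replicate 26 (diamonds). All symbols are open because none was called, and the bars of Crtam are the widest in both panels.

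The difference between cell types in the effect of diet was tested as an interaction. No member was called (0% of genes were), none had an unadjusted p under 0.05 in the edgeR fit of all 12 libraries (5.95% of genes did), and DESeq2 called none of the members and 0.432% of genes. Cd226 was nearest, with an obese against lean change 1.25 lower in ILC1 than in NK cells on the log2 scale (interaction -1.25, SE 0.57, unadjusted p = 0.0502, adjusted p = 0.818). Without replicate 26 this value was -0.82 (SE 0.22, unadjusted p = 0.003068, edgeR adjusted p = 0.549), and Cd7 then had an unadjusted p of 0.01969 (adjusted p = 0.591), against 7.71% of genes under 0.05. The unadjusted p of Cd226 was also under 0.05 with no filter on low counts (0.03809, adjusted p = 0.947) and with the mouse as a block (0.04766, adjusted p = 0.975). The interactions of Cd160 (-1.20, SE 0.78) and Cd7 (-1.16, SE 0.78) had adjusted p-values of 0.949 and 0.958.

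Among all genes tested, those with the pattern most like the called members were sought by Pearson's r of log2 CPM over the 12 libraries, given as a description since the libraries fall into 2 cell types. Cd226 was most like Cd7 (r = 0.989), Cd160 (r = 0.986) and Ccdc136 (r = 0.952). Cd160 was most like Cd226, Cd7 (r = 0.974) and Apol7e (r = 0.964), and Cd7 was most like Cd226, Cd160 and Abcb9 (r = 0.958). The 3 members raised in ILC1 were thus each other's nearest genes. Cd2 was most like Cdh22 (r = 0.953), Adamts14 (r = 0.923) and Clip4 (r = 0.917).

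Of 6 genes of ligands, co-receptors and adaptors of these receptors (Cadm1, Cd70, Btla, Cd2ap, Cd2bp2 and Cd247), 5 were tested and 1 was called over both diets, Cd247, the CD3ζ chain that carries signals of NK cell receptors. Its normalised counts were 3259 to 3594 in lean NK, 3068 to 3421 in obese NK, 1179 to 1462 in lean ILC1 and 809 to 2061 in obese ILC1, without overlap between cell types. It fell by 1.34 on the log2 scale in ILC1 (SE 0.21, edgeR adjusted p = 0.00361). Of all genes tested, 1.19% were called lower, and 4.49% lay lower in every ILC1 library with replicate 26 left out. Of 18 other costimulatory and surface genes, 16 were tested and 2 were called higher in ILC1 over both diets (3.15% of all genes tested were). Cd40lg, the CD40 ligand, had 0 to 5 normalised counts in NK cells and 104 to 208 in lean ILC1, but 1 to 340 in obese ILC1 (adjusted p = 0.0234). Without replicate 26, the library at 340, the obese ILC1 range was 1 to 83 (adjusted p = 0.027). Cd81, a tetraspanin, had 0 to 29 in NK cells, 49 to 193 in lean ILC1 and 266 to 9912 in obese ILC1, the highest in replicate 26 (adjusted p = 0.0144), and 266 to 820 without it (adjusted p = 0.0301). Neither list had a gene called between diets in either cell type. The median log2 fold change of ILC1 against NK cells over both diets was 0.736 in the first list and 0.745 in the second. Both lie near that of the members.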

How the data were processed

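RNA of 12 sorted-cell libraries was measured by RNA-seq. The authors deposited 1 table with, per gene and library, the raw whole-number counts and a rounded score, the counts over 1 factor per library, called normalised counts here. The submitters' processing notes name bcl2fastq 2.19, Trimmomatic 0.36.5, STAR 2.5.2b, featureCounts 1.6.0.2 and mm10, and the study's methods name SARTools (adjusted p under 0.05, fold over 2). The annotation and strand setting of the counting are not given in the sources used here. Only genes up to Cyp26b1 in alphabetical order were analysed, and 1 incomplete row was left out. Libraries were grouped by their labels, and columns were matched by name.

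Counts were fitted in R 4.3.3 with edgeR 4.0.16 (TMM, filterByExpr, glmQLFit and glmQLFTest, 1 model of 4 groups). The SE of a log2 fold change is its size over the square root of its F statistic. Log2 ratios within a library used counts with 0.5 added and exact permutation. Promoters are RefSeq's, and positions and exon lengths are from GENCODE M21, matched by symbol. The script was tested on simulated data. Alternatives were DESeq2 1.42.0, its size factors in edgeR, a replicate block, no filter, no fold limit, a fit of the compared libraries alone and each library left out. A further pair of fits, without both libraries that stood apart and with the mouse as a block but without obese ILC1 replicate 26, were chosen after seeing the data. The members, gene lists and markers were chosen with earlier results of these data known. The result of 1 marker list is not reported here. Named are the 10 members, the genes of 2 lists called in any comparison, and the 3 genes most like each called member. No replicate libraries were identical. Each mouse gave 1 NK and 1 ILC1 library, so these are paired by animal, and the correlations of their deviations from the group means ran from -0.08 to 0.14.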

Additional observations from a re-analysis of the deposited data

How the results depend on the processing

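Over all comparisons, 1046 of 1100 alternative values of a member's log2 fold change stayed on their side of the call, 29 lost a call, 25 gained one and 0 reversed a called direction. Most of the 1100 belong to members and comparisons not called in the main fit, so most of the 1046 stayed uncalled. The 29 lost calls come from the few that were called there, and the 1046 do not measure how stable those calls were. The number of members called higher in ILC1 over both diets was 3, and 5 with the mouse as replicate block and without obese ILC1 replicate 26. In lean mice it was 3 higher and 1 lower, and 0 and 0 with the replicate block. With the block and without replicate 26 the number called lower was 0. In obese mice it was 0 higher and 1 lower. There 3 were higher with DESeq2, 5 without both libraries that stood apart and 3 with the block less replicate 26, and 0 were lower with the compared libraries alone, with the block, and with the block less replicate 26. Between obese and lean ILC1, 1 member (Crtam) was higher without both libraries. With 1 library left out at a time, the members called higher ran from 3 to 4 over both diets, 1 to 4 in lean mice and 0 to 5 in obese mice, and those called lower from 0 to 1 in lean and in obese mice. The call of Cd2 was lost in lean mice without lean NK replicate 25 or 26, any lean ILC1 library or any obese NK library, and in obese mice without any obese NK library. All 5 higher calls in obese mice appeared without obese ILC1 replicate 26.

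Counts over all genes moved more. In the 3 comparisons of ILC1 with NK cells (both diets, lean, obese) they were 113, 60 and 24, with DESeq2 216, 148 and 151, with the replicate block 46, 21 and 0, with the block less replicate 26 60, 45 and 10, and without both libraries 177, 101 and 107. With the compared libraries alone the count in obese mice was 0. Between diets in NK cells, in ILC1 and for the interaction edgeR called 0, DESeq2 9, 75 and 15. Without both libraries 5 were called in ILC1. Leaving out 1 library gave 63 to 161, 29 to 102 and 5 to 66 in the first 3 comparisons and at most 1, 6 and 1 in the others. The replicate number as a block in the diet comparisons, where lean and obese mice share only a number, called no member. The compared libraries alone were not run over both diets, since all 12 libraries are compared there. DESeq2 size factors moved the median of all genes by at most 0.06 on the log2 scale. The Cd226 to Cd96 ratio in ILC1 against NK cells ran from 0.90 to 1.21 with 1 library left out, and that of Cd244 to Cd48 from -0.23 to 0.14. With 3 libraries a group, differences that were not called cannot be taken as absent, also where they exceeded their SE. In the fit of the NK libraries alone, Cd160 differed between diets by 0.95 (SE 0.20) with an edgeR adjusted p of 0.972.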
